A study of Mus musculus with 11 samples.

Results

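The genes described here belong to the major histocompatibility complex (MHC) class II pathway, measured in mouse peritoneal macrophages across treatment and genotype. The 8 members, H2-Aa, H2-Ab1, H2-Eb1, Cd74, H2-DMa, H2-DMb1, H2-DMb2 and H2-Ob, were chosen by name and are 8 of the 754 genes in the table. All 8 were among the 445 genes whose mean over the mice was above the table's floor of 30 normalized counts, and these 445 genes were tested. Normalized counts are counts of RNA molecules scaled in each mouse by 4 housekeeping genes. H2-DMb2 and H2-Ob were above the floor in 6 of the 11 mice, and the other 6 members in all 11.

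The study counted the RNA of sorted CD11b+F4/80+ peritoneal macrophages with bar-coded probes from a NanoString panel of myeloid innate immunity genes, to learn how loss of RELMα, the protein encoded by Retnla, alters these cells. All 11 mice were female C57BL/6 mice aged 6 to 8 weeks, injected intraperitoneally on days 0 and 2 and sampled on day 4. They received PBS, the vehicle, or IL-4c, which is interleukin-4 bound to an antibody that prolongs its action. Mice 1 and 2 were Rα+/+ (wild type) given PBS, and mice 3 and 4 were RαTd/Td given PBS. Mice 5, 6 and 7 were Rα+/+ given IL-4c, and mice 9, 10, 11 and 12 were RαTd/Td given IL-4c. A further IL-4c Rα+/+ sample, which the study removed, was not analysed here. RαTd/Td mice carry on both chromosomes an allele in which a tdTomato reporter replaces Retnla. The allele was made constitutive by a cross to a deleter line with Cre under a CMV promoter, so RELMα is missing from the whole animal and not from macrophages alone. Depth, the total of molecules counted for genes above the floor, was 297254 and 551546 in mice 1 and 2, 268858 and 280396 in mice 3 and 4, 487815 to 574505 in mice 5, 6 and 7 and 447267 to 523942 in mice 9 to 12.

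As background, MHC class II molecules present peptides from ingested proteins to CD4 T cells. An alpha and a beta chain assemble around the invariant chain CD74, which fills the peptide groove and carries the pair to endosomes, where proteases degrade CD74 and H2-DM exchanges its last fragment for a peptide, while H2-O restrains H2-DM. In the peritoneal cavity the large resident macrophages carry little class II protein at the surface, whereas small peritoneal macrophages, dendritic cells and B cells carry much of it. Of the members, 7 lie near each other in the MHC on chromosome 17, in the order H2-DMa, H2-DMb2, H2-DMb1, H2-Ob, H2-Ab1, H2-Aa and H2-Eb1, and Cd74 is on chromosome 18 (RefSeq, GRCm38.p6).

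Retnla, the gene removed by the allele, measured 4631 and 4141 normalized counts in the PBS Rα+/+ mice and 115675, 147349 and 171588 in the IL-4c Rα+/+ mice. It was at the floor in all 6 RαTd/Td mice, so every mouse matched its labelled genotype. Against the lowest value measurable in those mice, Retnla was at least 77.9-fold lower in RαTd/Td mice after PBS and at least 4466-fold lower after IL-4c. The macrophage label was checked on 8 marker genes, of which 7 were in the table, all 7 of them tested. Adgre1, which encodes F4/80, ranged from 5897 to 10617 normalized counts over the 11 mice, and Itgam, which encodes CD11b, from 7780.2 to 11245. The 7 markers summed to between 23600 and 29795 normalized counts in each mouse, so the defining markers of the gate were present in every mouse. The samples are bulk RNA, so a change in the share of class II-positive cells and a change in the RNA per cell cannot be told apart.

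Class II promoters are known for the X and Y boxes, upstream elements bound by the RFX and NF-Y complexes, to which the coactivator CIITA is recruited. The promoter sequences are shown because the members are known to share these elements. Windows of 300 bases, from 250 before to 50 after each RefSeq start, were searched for the 7 members on chromosome 17, and 6 of them matched the table with 7 windows, H2-DMa having 2 starts. The searched letters were AGNAACNGA for the core of the X box and GATTGG for the core of the Y box (CCAATC on the other strand), on both strands. The 5 stretches with a Y box core within 100 bases before the start are printed below 5′ to 3′ on the gene's strand, 66 bases each, with the matched X and Y box cores in capitals. They lie at chr17:34287857-34287922 (minus strand) for H2-Aa, chr17:34305757-34305822 (plus strand) for H2-Eb1, chr17:34153079-34153144 (plus strand) for H2-DMb1, chr17:34145108-34145173 (plus strand) for H2-DMb2 and chr17:34238797-34238862 (plus strand) for H2-Ob, all in GRCm38.p6.
H2-Aa: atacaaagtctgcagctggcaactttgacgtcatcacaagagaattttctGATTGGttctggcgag
H2-Eb1: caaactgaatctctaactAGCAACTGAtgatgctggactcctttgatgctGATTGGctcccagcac
H2-DMb1: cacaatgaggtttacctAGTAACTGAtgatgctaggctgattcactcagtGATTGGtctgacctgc
H2-DMb2: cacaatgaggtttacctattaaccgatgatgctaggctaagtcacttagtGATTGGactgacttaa
H2-Ob: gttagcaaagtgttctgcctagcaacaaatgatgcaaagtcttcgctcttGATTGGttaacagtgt
The Y box core began 49 bases before the start in H2-Aa, 60 in H2-Eb1, 62 in H2-DMb1, 91 in H2-DMb2 and 58 in H2-Ob. The H2-DMb2 stretch lies inside the annotated span of its gene, chr17:34143229-34151553, so its window was taken at a start within the gene. The other printed stretches lie outside the spans of their genes. H2-Eb1 also held it on the other strand, 35 bases before the start, and H2-DMa held it 199 bases before the second of its starts, so 6 of the 6 matched members held a Y box core in at least 1 window. The X box core was matched in H2-Eb1 and H2-DMb1, where 23 and 24 bases separated it from the Y box core. Over all 32851 promoter windows of the table, 16.1% held a Y box core, 5.35% an X box core, and 22 windows (0.0670%) a Y box core within 40 bases after an X box core on the same strand. The stretches of H2-DMb1 and H2-DMb2 were identical at 57 of 66 positions. A match describes the letters of a window and is neither a measured binding site nor a cause.

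**Figure D1:**
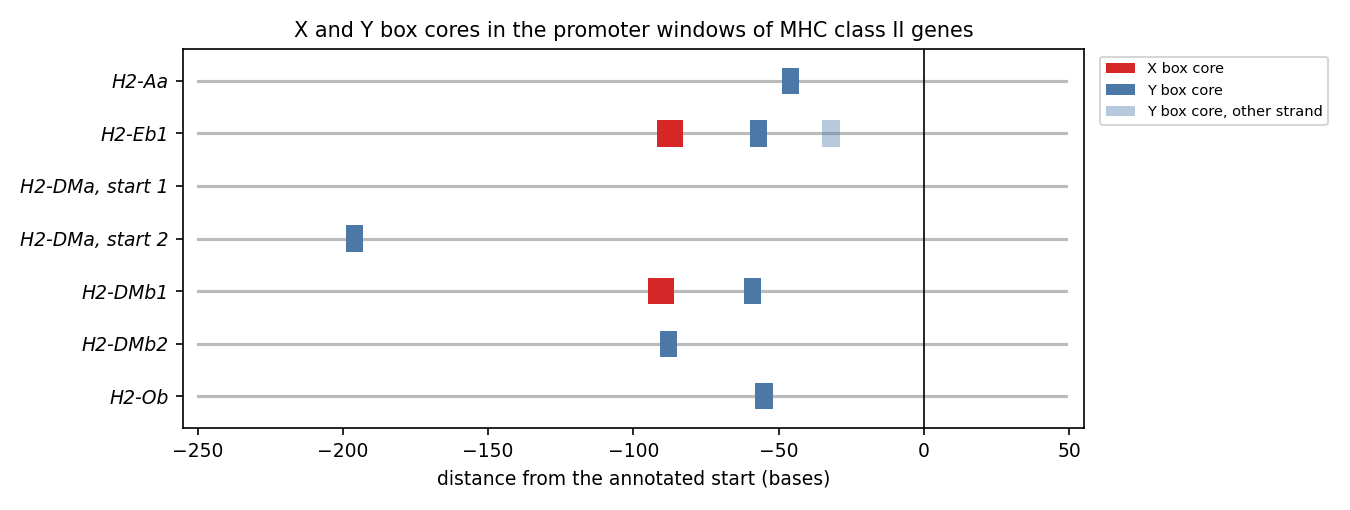
X box cores (red) and Y box cores (blue) in the 7 promoter windows of 6 MHC class II genes, by distance in bases from the annotated start. On the gene's strand the Y box core lies 49 to 91 bases before the start in 5 genes, and 199 bases before the second start of H2-DMa.

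H2-Aa encodes the alpha chain of the A molecule. It measured 1724 and 1933 normalized counts in the PBS Rα+/+ mice, 6135 and 8321 in the PBS RαTd/Td mice, 1081, 1807 and 1034 in the IL-4c Rα+/+ mice and 1928, 3218, 3490.1 and 4431 in the IL-4c RαTd/Td mice. Both PBS RαTd/Td mice were above all the others, and every IL-4c RαTd/Td mouse was above every IL-4c Rα+/+ mouse. H2-Ab1, which encodes the beta chain that pairs with it, measured 846 and 1084 normalized counts in the PBS Rα+/+ mice, 3048 and 4434 in the PBS RαTd/Td mice, 575, 999.7 and 608 in the IL-4c Rα+/+ mice and 1132, 1839, 2077 and 2490.1 in the IL-4c RαTd/Td mice. All 6 RαTd/Td mice were above all 5 Rα+/+ mice. H2-Eb1, the beta chain of the E molecule, measured 703 and 927 normalized counts in the PBS Rα+/+ mice, 2123 and 2734 in the PBS RαTd/Td mice, 420.2, 605 and 266 in the IL-4c Rα+/+ mice and 471, 1016, 1106 and 1523 in the IL-4c RαTd/Td mice. The PBS RαTd/Td mice were again the highest, and mouse 9 was the 1 IL-4c RαTd/Td mouse within the range of the IL-4c Rα+/+ mice.

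Cd74 encodes the invariant chain. It measured 3963 and 4865 normalized counts in the PBS Rα+/+ mice, 12683 and 16768 in the PBS RαTd/Td mice, 2424, 3891 and 2298 in the IL-4c Rα+/+ mice and 3331, 6055, 6332 and 9394 in the IL-4c RαTd/Td mice. Both PBS RαTd/Td mice were above all the others, and mouse 9 was the 1 IL-4c RαTd/Td mouse below the highest IL-4c Rα+/+ mouse. The counts behind these 4 genes, before scaling, were 891 to 4431 for H2-Aa, 502 to 2361 for H2-Ab1, 229 to 1456 for H2-Eb1 and 1981 to 8929 for Cd74, while no negative control probe counted above 13 in any mouse.

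H2-DMa and H2-DMb1 encode the alpha chain and a beta chain of the peptide editor H2-DM. H2-DMa measured 199 and 154 normalized counts in the PBS Rα+/+ mice, 392 and 471 in the PBS RαTd/Td mice, 191, 223 and 190.3 in the IL-4c Rα+/+ mice and 229, 309, 329.8 and 327 in the IL-4c RαTd/Td mice. All 6 RαTd/Td mice were above all 5 Rα+/+ mice. H2-DMb1 measured 101 and 96.7 normalized counts in the PBS Rα+/+ mice, 224 and 162 in the PBS RαTd/Td mice, 96.2, 101 and 135 in the IL-4c Rα+/+ mice and 124, 153, 186 and 195 in the IL-4c RαTd/Td mice. Its genotypes did not overlap after PBS, and after IL-4c mouse 9 lay below mouse 7, the highest Rα+/+ mouse. The counts behind these values were 124 to 306 for H2-DMa and 63 to 173 for H2-DMb1.

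H2-DMb2 encodes another beta chain of H2-DM, and H2-Ob encodes the beta chain of H2-O, the restrainer of H2-DM. Whether the H2-DMb1 and H2-DMb2 probes read each other's RNA was not tested. H2-DMb2 measured 72.4 and 117 normalized counts in the PBS Rα+/+ mice, 127 and 120.2 in the PBS RαTd/Td mice, and the floor in the 3 IL-4c Rα+/+ mice and in IL-4c RαTd/Td mice 9 and 10, with 39.9 and 57.4 in mice 11 and 12. H2-Ob measured 80.4 and 61.5 normalized counts in the PBS Rα+/+ mice, 71.0 and 99.5 in the PBS RαTd/Td mice, and the floor in the 3 IL-4c Rα+/+ mice and in IL-4c RαTd/Td mice 9 and 10, with 41.0 and 34.4 in mice 11 and 12. For both genes all 4 PBS mice were above all 7 IL-4c mice. These are low signals: the counts in the 6 mice above the floor were 37 to 156 for H2-DMb2 and 30 to 82 for H2-Ob, and the lowest value that a mouse could show above the floor ranged from 30.5 to 56.3 normalized counts.

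**Figure D2:**
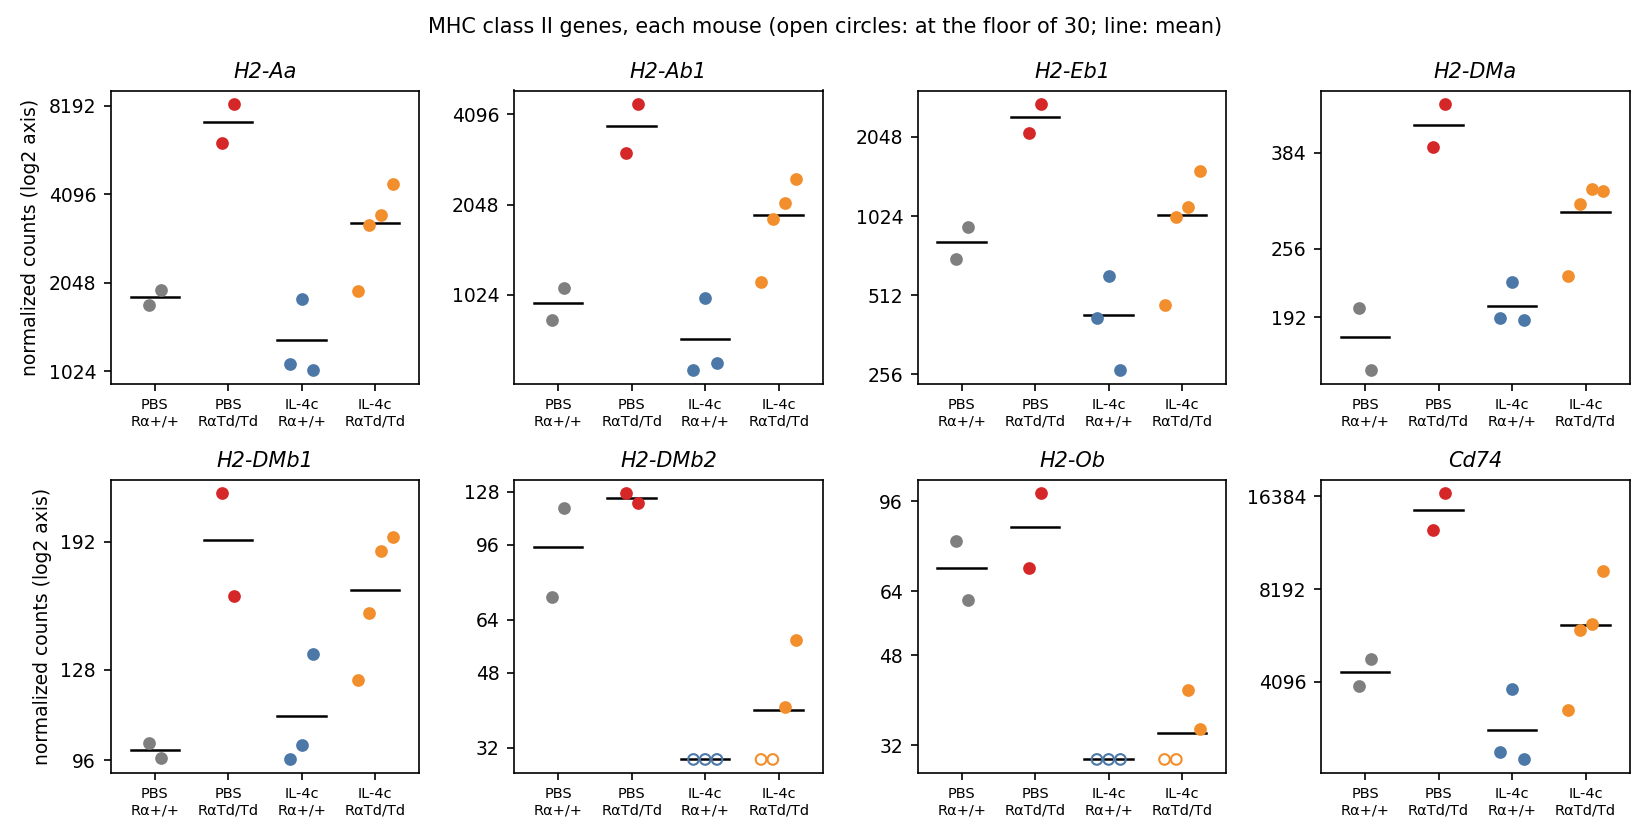
Normalized counts of the 8 MHC class II genes in each mouse on log2 axes, with the group mean as a line and open circles for mice at the floor of 30. The PBS RαTd/Td mice hold the highest mean of each gene, and H2-DMb2 and H2-Ob are above the floor in 6 mice.

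For the chains and Cd74 the order of group means was PBS RαTd/Td, IL-4c RαTd/Td, PBS Rα+/+ and IL-4c Rα+/+. H2-Aa averaged 7228 ± 1546 (SD, n = 2), 3267 ± 1033 (n = 4), 1828 ± 148 (n = 2) and 1307 ± 433 (n = 3) normalized counts in that order, and each neighbour after the first pair overlapped. H2-Ab1 averaged 3741 ± 980.0, 1885 ± 569, 965 ± 168 and 727 ± 236, with an overlap between the last pair alone. H2-Eb1 averaged 2429 ± 432, 1029 ± 432, 815 ± 159 and 430.4 ± 170.1, and Cd74 averaged 14725 ± 2889, 6278 ± 2479, 4414 ± 637 and 2871 ± 885. For those 2 genes the middle pair overlapped, while the first pair and the last pair did not. H2-DMa and H2-DMb1 had the Rα+/+ groups the other way round, with IL-4c above PBS. H2-DMa averaged 432 ± 55.8, 299 ± 47.6, 202 ± 18.8 and 177 ± 32.3 for PBS RαTd/Td, IL-4c RαTd/Td, IL-4c Rα+/+ and PBS Rα+/+, and its Rα+/+ groups overlapped. H2-DMb1 averaged 193 ± 44.4, 165 ± 32.7, 110.5 ± 21.0 and 99.0 ± 3.22 in the same order, and every pair of neighbours overlapped. H2-DMb2 and H2-Ob were ordered by treatment first, with PBS RαTd/Td (124 ± 4.86 and 85.3 ± 20.2) above PBS Rα+/+ (94.7 ± 31.6 and 70.9 ± 13.4) and both PBS groups above the IL-4c groups. The PBS genotypes overlapped for H2-Ob and did not for H2-DMb2.

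The first comparison asked whether loss of RELMα went with a different class II level in macrophages of mice given PBS. By limma, with p adjusted over the 445 tested genes and called at or under 0.05, 5 of the 8 members were higher in RαTd/Td mice (4 with each mouse centred on its median gene, without H2-DMb1, and 3 after quantile normalization, without H2-DMb1 and Cd74), beside 8.09% of all tested genes. The groups did not overlap for 7 of the 8, RαTd/Td higher, beside 35.5% of all tested genes. The median log2 difference was 1.43 over the members and 0.10 over all tested genes. Of these 2 scalings, centring on the median gene lowered the median of all tested genes by 0.15 in this comparison and by 0.19 in the genotype comparison after IL-4c, and raised it by 0.30 in the comparison of IL-4c with PBS in Rα+/+ mice and by 0.26 in RαTd/Td mice.

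H2-Aa rose 1.97 on the log2 scale (95% confidence interval 1.12 to 2.82, 3.91-fold, adjusted p = 0.0144), and was not called without mouse 2 (2.05) or mouse 4 (1.75). H2-Ab1 rose 1.94 (1.08 to 2.80, 3.84-fold, adjusted p = 0.0151), and was not called without mouse 1 (1.76), mouse 2 (2.12) or mouse 4 (1.67). Both chains of the A molecule were thus higher by a similar factor in both RαTd/Td mice. H2-DMa rose 1.29 (0.83 to 1.76, 2.45-fold, adjusted p = 0.00565) and was not called without mouse 4 (1.16). Cd74 rose 1.73 (0.78 to 2.68, 3.32-fold, adjusted p = 0.0388) and was called without mouse 6, 9 or 12 but not without mouse 1 (1.58), 2 (1.88), 3 (1.93), 4 (1.53) or 5, 7, 10 or 11 (1.73). H2-DMb1 rose 0.94 (1.91-fold, adjusted p = 0.0474) and was called without mouse 9 or 12 but not without mouse 1 (0.97), 2 (0.90), 3 (0.70), 4 (1.17) or 5, 6, 7, 10 or 11 (0.94). The members not called were H2-Eb1, 1.58 higher (adjusted p = 0.0929) and called without mouse 9 (1.58), H2-DMb2, 0.42 higher (adjusted p = 0.463), and H2-Ob, 0.25 higher (adjusted p = 0.513). The number of members called was 2 without mouse 1, 1 without mouse 2, 3 without mouse 3, 0 without mouse 4 (limma, 5 at an unadjusted p) and 3 without mouse 5, 7, 10 or 11. It was 1 with no filter on low values, 0 with only the 2 groups in the limma fit (6 unadjusted) and 0 by the unpaired test of the study's methods with adjusted p (5 unadjusted). The methods name that unpaired test for pathway scores and 2-group comparisons, while the study's gene differences came from the NanoString analysis software.

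After IL-4c the same question gave 2 members called higher in RαTd/Td mice by limma, H2-Aa and H2-Ab1, beside 1.57% of the tested genes (0 members with each mouse centred on its median gene and 0 after quantile normalization, with 5 and 6 at an unadjusted p). For 3 members, H2-Aa, H2-Ab1 and H2-DMa, the groups did not overlap, RαTd/Td higher, beside 16.4% of the tested genes. The median log2 difference of the members was 0.82, beside 0.12 over all tested genes. H2-Aa rose 1.31 on the log2 scale (0.66 to 1.96, 2.48-fold, adjusted p = 0.0474) in 4 of 4 RαTd/Td mice. H2-Ab1 rose 1.36 (0.71 to 2.02, 2.57-fold, adjusted p = 0.0421), also in 4 of 4. The other members lay above 0 without a call: H2-Eb1 by 1.22 (adjusted p = 0.126), Cd74 by 1.08 (0.104), H2-DMb1 by 0.56 (0.137), H2-DMa by 0.55 (0.102), H2-DMb2 by 0.33 (0.454) and H2-Ob by 0.16 (0.587, or -0.03 with each mouse centred on its median gene). The last 2 are fitted values without a bound, since both groups had mice at the floor. At an unadjusted p, 6 of the 8 passed by limma and 5 by the unpaired test of the study's methods. Mouse 9 was the lowest of the 4 IL-4c RαTd/Td mice for all 6 members measured above the floor in every mouse, and without it 5 members were called, adding H2-Eb1 (1.55), H2-DMa (0.68) and Cd74 (1.35). Without mouse 1, 2, 3, 4, 5, 7, 10, 11 or 12 in turn, no member was called by limma (5 or 6 unadjusted), with H2-Aa between 1.14 and 1.31 and H2-Ab1 between 1.21 and 1.36. The count was also 0 with no filter, with a single floor for all mice and with only the 2 groups in the limma fit (6 unadjusted each), 0 by the unpaired test with adjusted p, and 1 with a pseudocount of 10.

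In Rα+/+ mice, IL-4c was compared with PBS to ask what interleukin-4 does to the genes when RELMα is present. Lower calls by limma were made for 2 of the 8 members, H2-DMb2 and H2-Ob, beside 32.4% of the tested genes, and the groups did not overlap, IL-4c lower, for 4 members (H2-Eb1, Cd74, H2-DMb2 and H2-Ob), beside 42.9%. The members' median was -0.59 on the log2 scale (-0.59 also with H2-DMb2 and H2-Ob at the bounds given next), beside -0.18 over all tested genes. H2-DMb2 was at least 2.62-fold lower (fitted log2 difference -1.59, adjusted p = 0.00134), since all 3 IL-4c mice were at the floor. H2-Ob was at least 2.00-fold lower (fitted -1.20, adjusted p = 0.000674). Mice at the floor all hold the same value, so the spread behind the p-values of H2-DMb2 and H2-Ob leaves out variation under the floor. With a single floor of 56.3 normalized counts for all mice H2-DMb2 remained called (-0.70) and H2-Ob did not (-0.31). H2-Aa differed by -0.53 (adjusted p = 0.240), H2-Ab1 by -0.44 (0.338), Cd74 by -0.66 (0.197) and H2-Eb1 by -0.98 (0.110). H2-Eb1 was called without mouse 9 (-0.98), which entered through the shared estimate of the spread. The peptide editor chains lay above 0, H2-DMa by 0.20 (adjusted p = 0.438) and H2-DMb1 by 0.14 (0.665), with H2-DMb1 at -0.01 without mouse 7. H2-DMa was called higher with each mouse centred on its median gene or after quantile normalization, so these scalings gave 3 called members each, 1 higher and 2 lower.

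The same treatment in RαTd/Td mice asks what interleukin-4 does when RELMα is absent. Lower calls by limma were made for 7 of the 8 members (all but H2-DMb1), beside 36.6% of the tested genes, with 5 lower calls after centring on the median gene and 6 after quantile normalization. The groups did not overlap, IL-4c lower, for the same number of members, 7, beside 43.6% of the tested genes. The members' median was -1.24 on the log2 scale (-1.25 with H2-DMb2 and H2-Ob at the bounds given next), beside -0.23 over all tested genes. H2-Aa fell by 1.19 on the log2 scale (-1.93 to -0.45, adjusted p = 0.0127), lower in 4 of 4 IL-4c mice, and H2-Ab1 fell by 1.02 (adjusted p = 0.0265, not called with centring). H2-Eb1 fell by 1.35 (adjusted p = 0.0282), and Cd74 fell by 1.31 (-2.13 to -0.49, adjusted p = 0.0136). The PBS and IL-4c mice did not overlap for any of these 4 genes. H2-DMa fell by 0.54 (adjusted p = 0.0293, not called with either scaling), and H2-DMb1 differed by -0.23 (adjusted p = 0.414), or by 0.03 with centring and 0.04 after quantile normalization. H2-DMb2 was at least 3.22-fold lower (fitted -1.68, adjusted p = 0.000647) and H2-Ob at least 2.47-fold lower (fitted -1.30, adjusted p = 0.000314), with 2 of the 4 IL-4c mice above the floor for each. The fit adds 1 to each value and the bounds do not, so the fitted folds lie slightly under them. With the single floor of 56.3 normalized counts both remained called, at -1.11 for H2-DMb2 and -0.57 for H2-Ob. Without mouse 4, the PBS mouse with the highest H2-Aa, 2 members were called, H2-DMb2 and H2-Ob, and the differences were -0.97 for H2-Aa, -0.75 for H2-Ab1, -1.16 for H2-Eb1, -1.11 for Cd74 and -0.41 for H2-DMa. H2-Eb1 was also not called without mouse 1 (-1.35) or mouse 3 (-1.53), nor H2-DMa without mouse 3 (-0.67), and the count was 3 with no filter, 2 with only the 2 groups in the fit and 3 by the unpaired test (2 with adjusted p).

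Whether the response to IL-4c differed between the genotypes was tested directly as the difference between the differences. By limma 0 of the 8 members were called (1 at an unadjusted p), beside 2.02% of the tested genes, and no other tool was run for this test. The estimates of the 6 members above the floor in every mouse were all below 0, without a call, with a median of -0.62 (-0.47 over all 8) beside -0.00 over all tested genes. For H2-Aa, H2-Ab1, H2-Eb1 and Cd74 the fitted decrease was larger in RαTd/Td mice, while H2-DMa and H2-DMb1 lay above 0 in Rα+/+ mice and below 0 in RαTd/Td mice (H2-DMb1 above 0 there with both scalings). H2-DMa, the member that passed at an unadjusted p, had -0.74 (-1.33 to -0.15, unadjusted p = 0.0190, adjusted p = 0.211), and without mouse 2 or without mouse 4 no member passed at an unadjusted p. H2-Aa had -0.66 (-1.73 to 0.41), Cd74 -0.65 (-1.85 to 0.54), H2-Ab1 -0.58 (-1.66 to 0.50) and H2-Eb1 -0.36 (-1.81 to 1.08). H2-DMb1 had -0.37. The values of H2-DMb2 (-0.09) and H2-Ob (-0.10) depend on the floor, at which all 3 IL-4c Rα+/+ mice lay, so their sign is not read. H2-DMb2 turned to 0.25 without mouse 1 and to 0.02 without mouse 9 or 10, and H2-Ob to 0.09 without mouse 2 and to 0.14 without mouse 4. The 5 comparisons share mice, the PBS RαTd/Td mice 3 and 4 entering 3 of them, so their values are given side by side and are not independent.

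**Figure D3:**
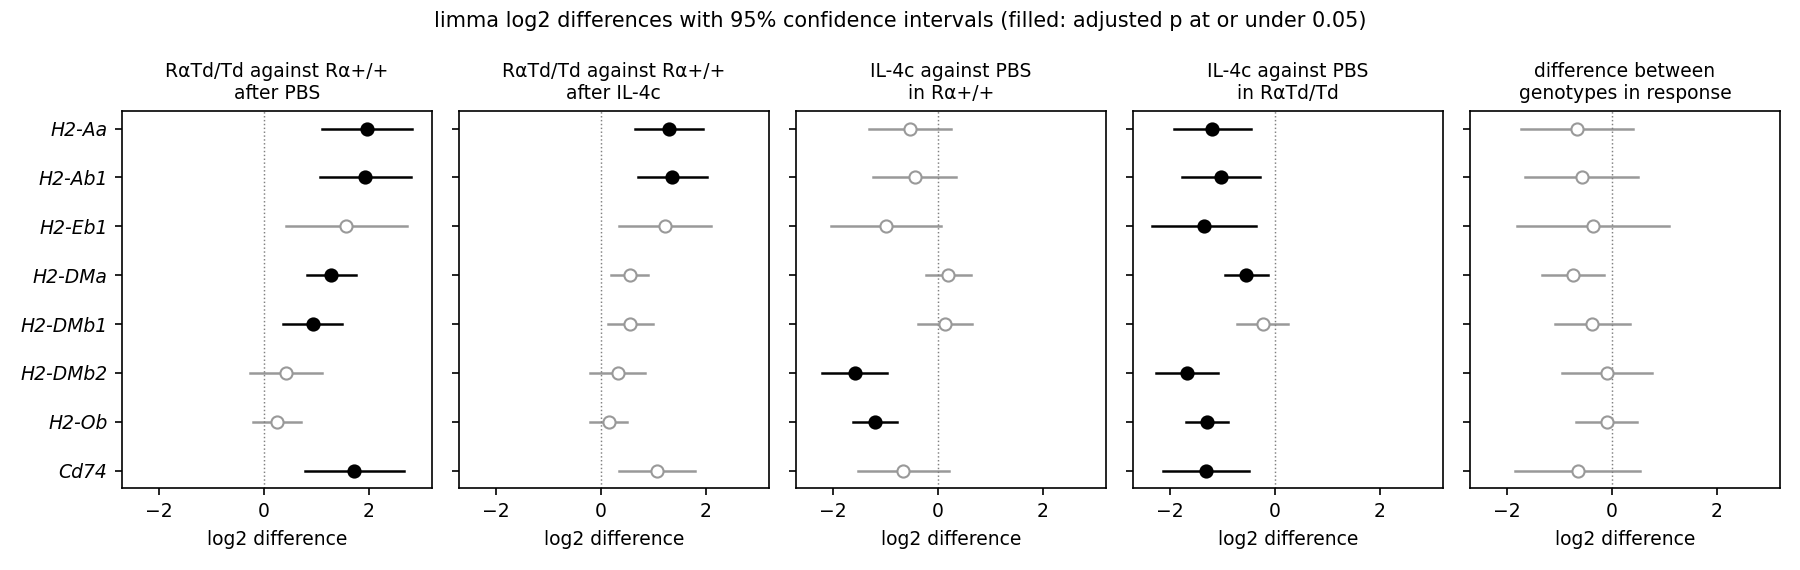
Log2 differences of the 8 MHC class II genes from limma with 95% confidence intervals in the 5 comparisons, filled where the adjusted p is at or under 0.05. The filled points number 5, 2, 2, 7 and 0 from left to right, counts that change to 4, 0, 3, 5 and 0 with each mouse centred on its median gene and to 3, 0, 3, 6 and 0 after quantile normalization.

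Within the IL-4c RαTd/Td mice the highest value over the lowest was 2.30-fold for H2-Aa, 2.20-fold for H2-Ab1, 3.23-fold for H2-Eb1, 2.82-fold for Cd74, 1.44-fold for H2-DMa and 1.58-fold for H2-DMb1. Mouse 9 was the lowest for each of these and mouse 12 the highest, except that mouse 11 was the highest for H2-DMa. Among the IL-4c Rα+/+ mice, mouse 6 was the highest for H2-Aa, H2-Ab1, H2-Eb1, Cd74 and H2-DMa, and mouse 7 for H2-DMb1. In both PBS groups mouse 2 was above mouse 1 and mouse 4 above mouse 3 for H2-Aa, H2-Ab1, H2-Eb1 and Cd74, while mouse 1 was above mouse 2 for H2-DMa, H2-DMb1 and H2-Ob, and mouse 3 above mouse 4 for H2-DMb1 and H2-DMb2. Of the 320 tested genes without ties, 6 ordered the mice within every group as H2-Aa did. They were H2-Aa itself, H2-Eb1, Cd74, Ccr2, Ccl9 and Cstb. This order was looked for after the values were seen, and the number expected by chance was not worked out.

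The standard deviation of log2 values within groups was 0.58 for H2-Eb1, 0.48 for Cd74, 0.43 for H2-Ab1 and 0.43 for H2-Aa, beside a median of 0.21 over the tested genes. They ranked 20, 37, 57 and 59 of 445 from the most variable. H2-DMb1 (0.27) and H2-DMa (0.22) were closer to the median gene, and H2-DMb2 and H2-Ob, at the floor in 5 mice, are not compared. The wide intervals of the chains and of Cd74 thus go with a large spread between mice of a group, and H2-DMa, with a smaller difference after PBS than H2-Aa, had the smaller adjusted p.

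Ratios between members within a mouse show how closely pairs moved. H2-Aa over H2-Ab1, the 2 chains of the A molecule, stayed between 1.68 (mouse 11) and 2.04 (mouse 1), while H2-Aa itself spanned 8.05-fold over the mice. The standard deviation of the log2 ratio was 0.09, beside 0.98 for log2 H2-Aa. Cd74 over H2-Aa ranged from 1.73 (mouse 9) to 2.52 (mouse 2), and H2-Aa over H2-Eb1 from 2.09 (mouse 2) to 4.09 (mouse 9), so the E chain was lowest relative to the A chain in the mouse with the lowest class II level of its group. H2-DMa over H2-DMb1 ranged from 1.41 (mouse 7) to 2.92 (mouse 4). H2-Aa over H2-DMa ranged from 5.43 (mouse 7) to 17.7 (mouse 4), and averaged 10.6 in the PBS Rα+/+ mice, 16.6 in the PBS RαTd/Td mice, 6.39 in the IL-4c Rα+/+ mice and 10.7 in the IL-4c RαTd/Td mice. Such ratios compare probes with different efficiencies, so only their change between mice is read.

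The genes most like the members were sought among 297 other tested genes above the floor in every mouse. The measure was the root mean square difference, over the 11 mice, between a gene's log2 values and the mean of the 6 members above the floor in every mouse, each gene set to a mean of 0. The 5 closest genes were Fcgr4 (0.32), H2-K1 (0.34), H2-Q1 (0.39), H2-T23 (0.40) and Birc3 (0.41), beside a median of 0.69 over the 297 genes. They were picked by their pattern over these same mice, so group differences like those of the members follow from the choice. The members' own values were 0.20 for Cd74, 0.20 for H2-Aa, 0.20 for H2-Ab1, 0.33 for H2-Eb1, 0.35 for H2-DMa and 0.48 for H2-DMb1, so H2-DMb1 was farther from the mean pattern than those 5 genes were. Each member is part of that mean, so its value is smaller than against the other members alone. Fcgr4, which encodes an Fc receptor for IgG, measured 585 and 771 normalized counts in the PBS Rα+/+ mice, 1179 and 1534 in the PBS RαTd/Td mice, 444, 455 and 299 in the IL-4c Rα+/+ mice and 614, 517, 894 and 1121 in the IL-4c RαTd/Td mice. Its genotypes did not overlap after PBS or after IL-4c, and neither difference was called by limma (1.00 with adjusted p = 0.132, and 0.93 with adjusted p = 0.102). Birc3, which encodes an inhibitor of cell death and NF-kB regulator, rose 0.69 in RαTd/Td mice after PBS (adjusted p = 0.0436), a call lost without mouse 1, 2, 3, 4, 5, 6, 7 or 10 and with either scaling, and fell with IL-4c in both genotypes (-0.79 and -0.94).

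**Figure D4:**
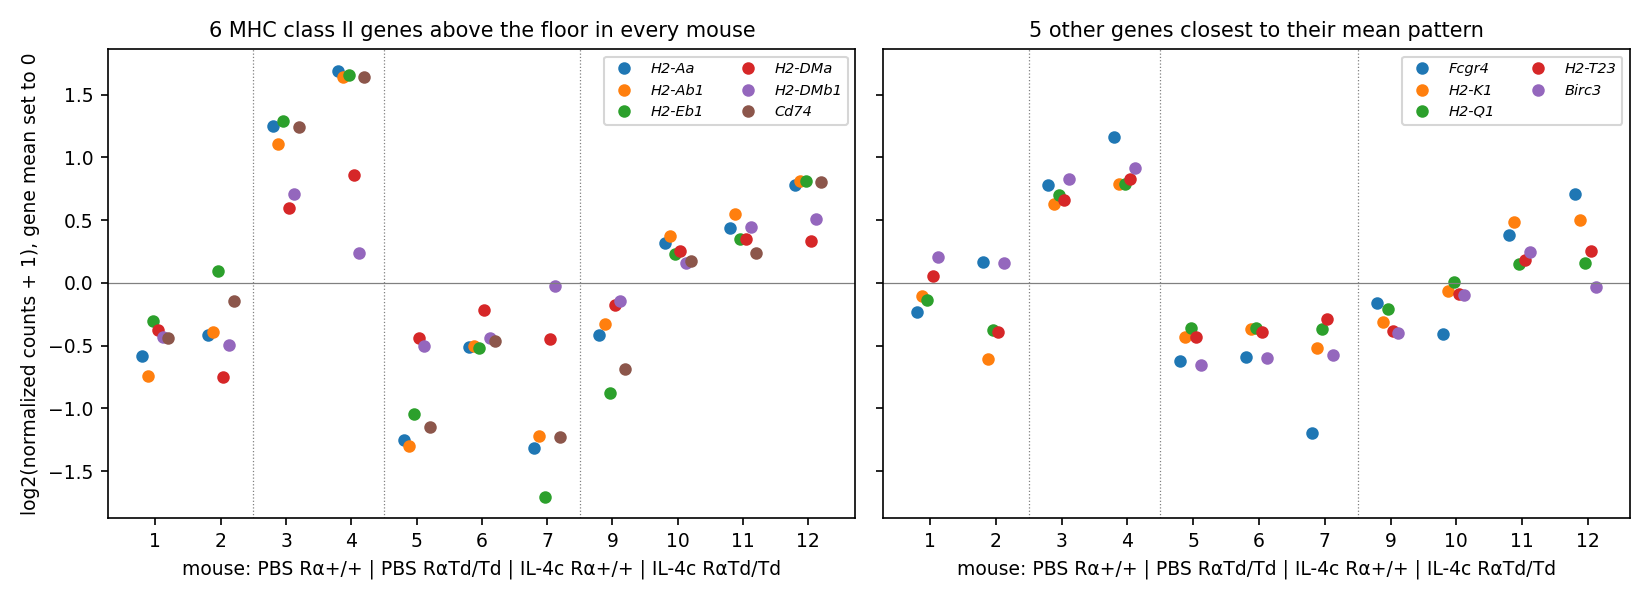
Log2 normalized counts (plus 1) in each mouse, each gene set to a mean of 0, for the 6 MHC class II genes above the floor in every mouse (left) and the 5 other genes closest to their mean pattern (right). Mice 3 and 4 hold the highest group mean of each gene in both panels, on the right among genes picked for this pattern. Mouse 9 is the lowest of mice 9 to 12 for each gene on the left.

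Of 27 other genes of the class II pathway that were listed, 6 were in the table and 4 were tested (Nfyc, Ctss, Ctsl and Ctsd), while H2-Ea-ps and Lag3 were at the floor in every mouse. By limma none of the 4 was called between genotypes after PBS or after IL-4c, beside 8.09% and 1.57% of all tested genes called higher, with 2 at an unadjusted p each time, and by the unpaired test of the study's methods 0 and 2 passed unadjusted and none adjusted. 1 of the 4 was called higher after PBS without mouse 1 and 1 after IL-4c without mouse 9. Their median was 0.18 after PBS, beside 0.10 over all tested genes, and 0.43 after IL-4c, beside 0.12. Ctss encodes cathepsin S, the protease that makes the last cuts in CD74. It measured 5306 and 4016 normalized counts in the PBS Rα+/+ mice, 5929 and 6582 in the PBS RαTd/Td mice, 2150.3, 2345 and 2306 in the IL-4c Rα+/+ mice and 2708, 3019, 3326 and 3985 in the IL-4c RαTd/Td mice. The genotypes did not overlap under either treatment, without a call (0.44 with adjusted p = 0.212, and 0.51 with adjusted p = 0.102), and Ctss fell with IL-4c by 1.03 in Rα+/+ mice (adjusted p = 0.00119) and by 0.95 in RαTd/Td mice (adjusted p = 0.00121). Ctsl, another protease that can cut CD74, rose 1.59 with IL-4c in RαTd/Td mice (adjusted p = 0.00206) and was 0.71 higher in Rα+/+ mice (adjusted p = 0.0996). It was called there too without mouse 12 and with either scaling. Ctsd rose 0.44 with IL-4c in RαTd/Td mice (adjusted p = 0.0386), a call lost without mouse 1, 3, 4, 6, 11 or 12, and Nfyc, a subunit of NF-Y, fell by 0.42 (adjusted p = 0.0168), a call lost without mouse 3 and with both scalings. So within RαTd/Td mice the proteases divided, with Ctss lower and Ctsl higher after IL-4c, while 7 of the 8 members were lower.

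The MHC class I pathway, which presents peptides from inside the cell to CD8 T cells, was set beside the members as a related family, with 14 of its 24 listed genes in the table and 12 tested. After PBS 7 of the 12 were called higher in RαTd/Td mice by limma (3 with each mouse centred on its median gene, 3 after quantile normalization), beside 8.09% of the tested genes and 5 of the 8 class II members, with a median of 0.73. The 7 were the class I heavy chains H2-K1 (1.06), H2-D1 (0.89), H2-Q1 (1.00) and H2-T23 (0.91), the peptide loader Tapbp (0.72) and the immunoproteasome subunits Psmb8 (0.47) and Psmb9 (0.75), with adjusted p from 0.00560 for H2-Q1 to 0.0474 for Psmb8. H2-K1 measured 7042 and 4996 normalized counts in the PBS Rα+/+ mice, 11719 and 13100.4 in the PBS RαTd/Td mice, 5625, 5876 and 5304 in the IL-4c Rα+/+ mice and 6129, 7276, 10597 and 10719 in the IL-4c RαTd/Td mice. As for H2-Aa, both PBS RαTd/Td mice were above all the others and the genotypes did not overlap after IL-4c. The count of 7 was 0 without mouse 4, 1 without mouse 2, 3, 5, 6 or 7 and 3 without mouse 10, 1 with no filter, 0 with only the 2 groups in the limma fit, and 0 by the unpaired test with adjusted p (5 unadjusted). After IL-4c none was called between genotypes by limma (5 unadjusted, 2 by the unpaired test, none adjusted, and 1 called without mouse 9), with a median of 0.37. With IL-4c in Rα+/+ mice 3 of the 12 fell (Cd1d1, Tap2 and Tapbp, with 1 without mouse 1, 2 without mouse 5, 2 with centring and 1 after quantile normalization, when 3 and 2 others were called higher), beside 32.4% of all tested genes. With IL-4c in RαTd/Td mice 7 of the 12 fell, beside 36.6% of all tested genes (H2-D1, H2-Q1, H2-T23, H2-M3, Tap2, Tapbp and Cd1d1, with 6 without mouse 3, 5 without mouse 4 and 6 after quantile normalization), and Calr rose (none higher without mouse 3). The difference in response was not called for any of the 12 (1 unadjusted, limma, and 1 called after quantile normalization).

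Regulators of the interferon response and of Ciita, the gene of the class II coactivator, were analysed as 22 listed genes, of which 16 were in the table and 10 tested. Ifng, Cxcl9, Cxcl10, Ido1, Socs1 and Il10 were at the floor in every mouse. After PBS, 1 of the 10 was called higher in RαTd/Td mice by limma (4 unadjusted, 2 by the unpaired test, none adjusted), beside 8.09% of all tested genes, with a median of 0.36 beside 0.10. This was Stat3, which rose 0.42 (adjusted p = 0.0388), a call lost without mouse 2, 3, 4, 5, 6, 7 or 10 and with both scalings. The count of 1 was 0 without mouse 2, 3, 4, 5, 6, 7 or 10 and 2 without mouse 1, 9 or 12. Irf1 measured 228 and 180.0 normalized counts in the PBS Rα+/+ mice and 387 and 413 in the PBS RαTd/Td mice. Irf2 measured 778 and 669.7, and 969.8 and 1034.7, in the same groups. Neither gene overlapped between genotypes there, beside 35.5% of all tested genes, and neither was called. Irf8 went the other way after PBS, with means of 113 in Rα+/+ and 105 in RαTd/Td mice. After IL-4c none of the list was called between genotypes by limma (3 unadjusted, 2 by the unpaired test, none adjusted). With IL-4c in Rα+/+ mice 6 of the 10 fell (4 without mouse 1 or 2, 3 with centring and 4 after quantile normalization), beside 32.4% of all tested genes, and Irf4 rose (not without mouse 2 or 6). In RαTd/Td mice 7 of the 10 fell (6 without mouse 3, 5 without mouse 4, 6 with centring and 5 after quantile normalization), beside 36.6%. Irf8 was at the floor in all 7 IL-4c mice and between 87.8 and 125 normalized counts in the 4 PBS mice.

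**Figure D5:**
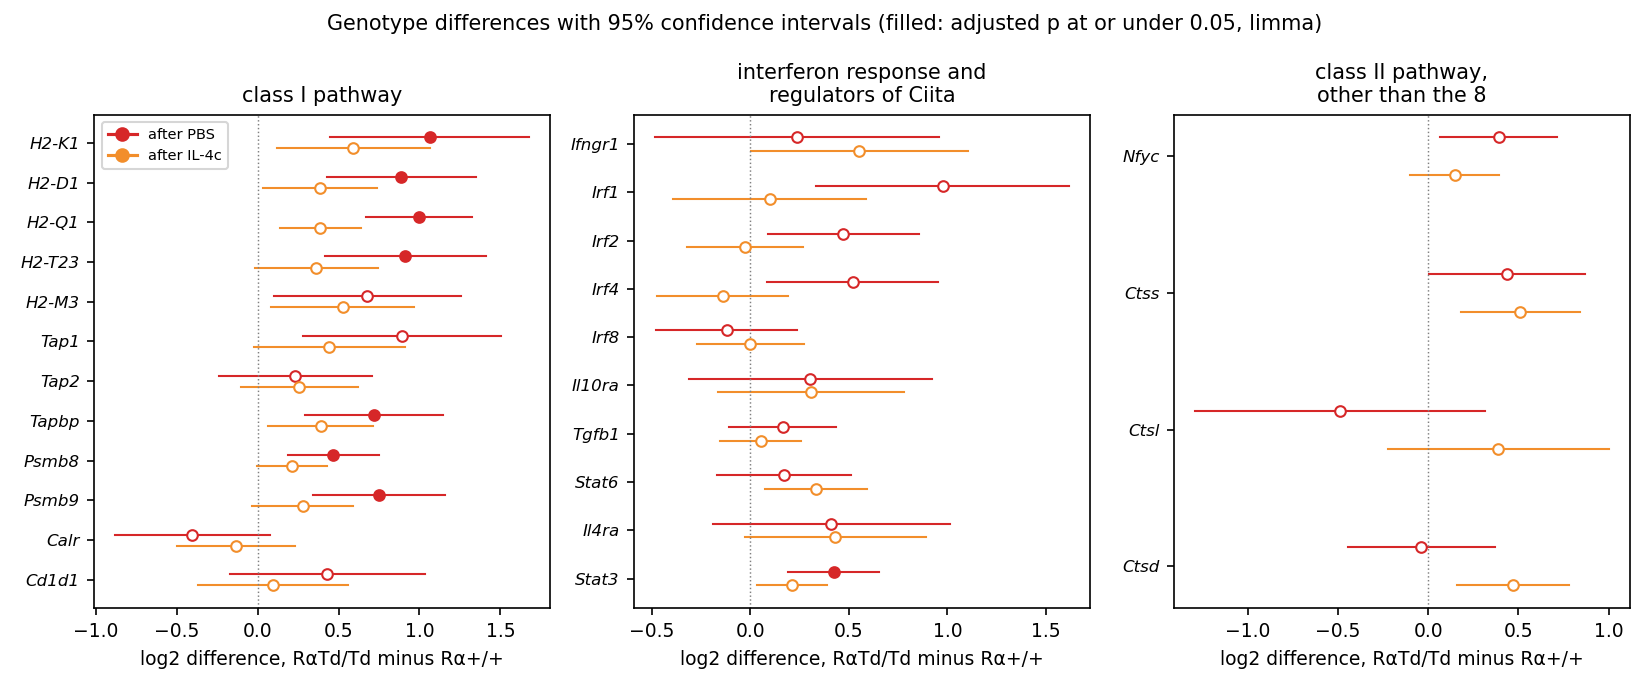
Log2 differences between RαTd/Td and Rα+/+ mice with 95% confidence intervals from limma for the tested genes of the class I pathway, the interferon and Ciita regulators and the rest of the class II pathway, after PBS (red) and after IL-4c (orange). Filled points, at an adjusted p at or under 0.05, number 7, 1 and 0 after PBS (3, 0 and 0 with each mouse centred on its median gene) and 0 after IL-4c.

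The costimulation list held 10 genes of molecules that act beside peptide and class II on contact with T cells. Besides costimulatory ligands it held the receptor gene Cd40 and the genes of 2 inhibitory ligands, Cd274 and Pdcd1lg2. All 10 listed genes were in the table, and 6 were tested. None was called between genotypes by limma after PBS (2 unadjusted, none by the unpaired test, 1 higher without mouse 1) or after IL-4c (none unadjusted, none by the unpaired test), beside 5 and 2 of the class II members and 8.09% and 1.57% of all tested genes called higher. Their medians were -0.13 after PBS and 0.12 after IL-4c. The 2 genes that passed unadjusted after PBS went opposite ways, each without overlap between genotypes. Cd86 was 0.82 higher in RαTd/Td mice (limma adjusted p = 0.123) and Cd40 was 0.59 lower (limma adjusted p = 0.134). Pdcd1lg2 was at the floor in every PBS mouse, so it could not differ there. With IL-4c in Rα+/+ mice 4 of the 6 fell, Cd40, Cd80, Cd86 and Icosl (1 of them without mouse 1, 2 without mouse 6, 3 without mouse 5 or 7, 2 with either scaling, where Cd80 and Icosl were lost and Cd274 was called higher, and Icosl not with a single floor), beside 32.4% of all tested genes. In RαTd/Td mice 2 of the 6 fell, Cd80 and Cd86, beside 36.6%, and Cd274 rose, while without mouse 3 the lower calls were 1 and the higher calls 0. Cd80 was not called there without mouse 4 or with either scaling. Cd86 fell by 1.27 in Rα+/+ mice (adjusted p = 0.00378, not called without mouse 1) and by 1.93 in RαTd/Td mice (adjusted p = 0.000241).

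B cells and dendritic cells carry much class II, so their markers were looked at. Of 14 B cell genes listed, 2 were in the table. Ms4a1, which encodes CD20, measured 105 and 226 normalized counts in the PBS Rα+/+ mice, 192 and 242 in the PBS RαTd/Td mice, the floor in the 3 IL-4c Rα+/+ mice and the floor in the IL-4c RαTd/Td mice except for 63.1 in mouse 12, and Fcer2a was at the floor in every mouse. All 4 PBS mice were thus above all 7 IL-4c mice, as for H2-DMb2 and H2-Ob. Ms4a1 was at least 4.37-fold lower with IL-4c in Rα+/+ mice (adjusted p = 0.000797) and at least 5.79-fold lower in RαTd/Td mice (adjusted p = 0.000323), and was not called between genotypes after PBS (0.49, adjusted p = 0.537) or after IL-4c (fitted 0.26, adjusted p = 0.658, with mice of both groups at the floor). The CD11b+F4/80+ sort is meant to leave B cells out, and the part of any B cell RNA in the lower H2-DMb2 and H2-Ob after IL-4c was not tested. Mouse 12, the one IL-4c mouse with Ms4a1 above the floor, also had the highest H2-Aa, H2-Ab1, H2-Eb1, H2-DMb1, H2-DMb2 and Cd74 of the 7 IL-4c mice. Of 11 dendritic cell genes, 5 were in the table, and Flt3, Xcr1, Clec9a and Ccr7 were at the floor in every mouse, so these defining markers were not detectable at this depth. Batf3, the remaining one, was highest at 75.4 normalized counts and was called higher with IL-4c in both genotypes, a call lost in Rα+/+ mice without mouse 1 and in both genotypes with a single floor for all mice (0.10 and 0.16), and not between genotypes (limma, none unadjusted, none by the unpaired test).

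Small peritoneal macrophages, which carry much class II, were represented by 3 of 7 listed genes, with Itgax at the floor in every mouse. Ccr2 measured 175 and 353 normalized counts in the PBS Rα+/+ mice, 249 and 259 in the PBS RαTd/Td mice, 98.5, 121 and 34.8 in the IL-4c Rα+/+ mice and 61.9, 102, 139 and 464 in the IL-4c RαTd/Td mice. The genotypes overlapped under both treatments, and mouse 12 was the highest of all mice, as it was the highest of its group for H2-Aa. No small macrophage gene was called between genotypes by limma (1 unadjusted after PBS and none after IL-4c, none by the unpaired test, 1 higher after PBS without mouse 1), and Irf4 rose with IL-4c in Rα+/+ mice as given above. With values at the floor counted as 0, the list summed to 318 and 454 in the PBS Rα+/+ mice, 422 and 430.0 in the PBS RαTd/Td mice, 259, 328 and 199.5 in the IL-4c Rα+/+ mice and 209, 287, 291 and 621 in the IL-4c RαTd/Td mice. Beside it, the 8 members summed to 7689 and 9237, to 24803 and 33110, to 4787, 7626 and 4530.2, and to 7215, 12590, 13603 and 18451 normalized counts in the same groups. After PBS the summed class II level did not overlap between genotypes, while the summed level of these markers, with Ccr2 the most abundant, did. Irf4, the other tested gene of the list, went the same way as class II after PBS. Its genotypes did not overlap, RαTd/Td higher, without a call (0.52, limma adjusted p = 0.135). After IL-4c the genotypes overlapped for Irf4 (-0.14). The part of small macrophages in the class II RNA levels was not tested. By flow cytometry, the study reported a higher class II protein signal in small but not large peritoneal macrophages of RαTd/Td mice.

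Large resident macrophages, which carry little class II, were represented by 5 of 9 listed genes, all tested. Their sum was 21525 and 16562 normalized counts in the PBS Rα+/+ mice, 19703 and 20364 in the PBS RαTd/Td mice, 8262, 7819 and 9296 in the IL-4c Rα+/+ mice and 10631, 10222.5, 10302 and 6286 in the IL-4c RαTd/Td mice, with Alox15 the most abundant. Mouse 12, the highest for H2-Aa after IL-4c, had the lowest sum. Gata6, the defining transcription factor of these cells, lay between 503 and 712 normalized counts in every mouse and was called in none of the comparisons. The other 4 genes fell with IL-4c in both genotypes (3 of them without mouse 1, 2, 5 or 6 in Rα+/+ mice and without mouse 3 or 4 in RαTd/Td mice, and 3 in both with either scaling, Alox15 being lost), beside 32.4% and 36.6% of all tested genes. After IL-4c Cxcl13 was at least 5.37-fold higher in RαTd/Td mice than in Rα+/+ mice (fitted log2 difference 2.62, adjusted p = 0.0421), since all 3 Rα+/+ mice were at the floor. The call held without mouse 9 or 10 and was lost without any other mouse and with a single floor for all mice (1.73). Of the general macrophage markers, 4 fell with IL-4c in both genotypes (Cd14, Csf1r, Fcgr1 and Mertk), of 7 tested, Adgre1 rose in Rα+/+ mice (not without mouse 2 or 7) and Cd68 in RαTd/Td mice (joined by 2 more without mouse 12 or with centring). Cd14 and Mertk were called higher in RαTd/Td mice after IL-4c (none without mouse 1, 2, 3, 4, 5, 6, 11 or 12, 1 without mouse 7, none with a single floor for all mice, and Mertk not with either scaling), beside 1.57% of the tested genes, the comparison in which H2-Aa and H2-Ab1 were called.

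The remaining lists were low. Neutrophil and monocyte genes had 9 of 10 in the table and 3 tested, with Csf3r the most abundant. Summed, they reached 334 to 629.8 normalized counts in the 4 PBS mice and at most 151 in the 7 given IL-4c, so treatments did not overlap, as for H2-DMb2 and H2-Ob. Csf3r fell with IL-4c in both genotypes, and S100a8 fell in Rα+/+ mice (not without mouse 2), while none was called between genotypes by limma (none unadjusted, none by the unpaired test, 1 lower after PBS without mouse 3). All 6 eosinophil genes in the table, of 7 listed, were at the floor in every mouse, and none of 9 T cell genes listed was in the table. The positive control probes are added in equal amounts. Their geometric mean was 1021 and 874 counts in the PBS Rα+/+ mice and 903 and 853 in the PBS RαTd/Td mice. It was 301 to 441 in the IL-4c Rα+/+ mice and 507 to 623 in the IL-4c RαTd/Td mice. These means did not overlap between treatments, nor between genotypes after IL-4c. The part of assay efficiency in the class II differences was not tested.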

How the data were processed

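The signal values, as deposited, are NanoString counts that the authors scaled by the housekeeping controls Rpl19, Oaz1, Gusb and Eef1g; the lowest value in the table is a floor of 30. The software version is not given in the sources used here. In each mouse 1 scaling factor, recovered from the table, returned whole counts within 0.1 for the values checked, those up to 1000, and division by it gave the depths. Values plus a pseudocount of 1 were taken to log2. A limma model (version 3.58.1, R 4.3.3) gave each of the 4 groups its own mean and let all 11 mice share 1 estimate of the spread. The 445 of 754 genes with a mean above the floor were tested, p-values were adjusted by Benjamini-Hochberg over them in each comparison, and calls were made at or under 0.05. The fit was tested on simulated data, and the outcome is not given here. Precision is limited by the number of mice, 2 in each PBS group. For any gene with mice at the floor, the spread behind its p-value leaves out variation under the floor. Where mice of 1 of the 2 groups compared are at the floor, the fold of a called gene is given as a lower bound, from the lowest value measurable in each mouse; where both groups have such mice, the fitted value is given. Genes were named by rule: Retnla, the 8 members, called and singled-out genes of lists of the class II and class I pathways, interferon and Ciita regulators, costimulation and cell markers (macrophages, large and small peritoneal macrophages, B cells, dendritic cells, T cells, neutrophils and monocytes, eosinophils), and the 5 genes most like the members. In the list of interferon and Ciita regulators, 1 planned gene is not reported here, and the counts leave it out. Ccl9 and Cstb were named outside the naming rule, for the order of the mice that they share with H2-Aa. Members and lists were chosen with earlier results of these data known. The alternatives were no filter, a mean above 100, values above the floor in every mouse, centring on the median gene, quantile normalization, a pseudocount of 10, a single floor, a mean-variance trend with robust moderation, only the 2 groups compared, each mouse left out, unadjusted p, and the unpaired t-test named in the study's methods.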

Additional observations from a re-analysis of the deposited data

Results flagged for a closer look

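Among the IL-4c RαTd/Td mice, the highest mouse stood apart from the other 3 by Dixon's test for 1 of the 51 genes looked at, those with all 4 mice above the floor. It was H2-M3, at 152.62 normalized counts, and not a class II member. Chance marks about 1 in 20 groups. Retnla differed between genotypes in its response to IL-4c (fitted log2 difference -5.03, limma adjusted p = 3.66e-07), a value set by the allele, since Retnla was at the floor in every RαTd/Td mouse.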

How the results depend on the processing

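Of 876 values of single members under the alternatives, 747 kept their direction and their side of the threshold, 103 kept their direction and were no longer called, 17 kept it and became called, and 9 changed sign. For genotype after PBS, 5 members called became 1 with no filter, 3 after quantile normalization, 0 with only the 2 groups compared (6 at an unadjusted p), 0 by the unpaired test with adjusted p (5 unadjusted), and 0 to 6 with 1 mouse left out. For genotype after IL-4c, 2 became 0 with no filter, 0 with centring on the median gene, 0 after quantile normalization, 1 with a pseudocount of 10, 0 with a single floor, 0 with only the 2 groups compared, 5 by the unpaired test with unadjusted p, 0 with adjusted p, 6 by limma with unadjusted p, and 0 to 5 with 1 mouse left out. For IL-4c in Rα+/+ mice, 2 became 0 with a mean above 100 and 0 with values above the floor in every mouse, where H2-DMb2 and H2-Ob were not tested (none of the other 6 passed unadjusted), 1 with a single floor, and 2 to 3 with 1 mouse left out. For IL-4c in RαTd/Td mice, 7 became 3 with no filter, 2 with only the 2 groups compared, 3 by the unpaired test with unadjusted p, 2 with adjusted p, and 2 to 7 with 1 mouse left out. The difference in response, 0 members, became 1 by limma with unadjusted p and stayed 0 with any 1 mouse left out. The values that changed sign were H2-DMb1 in RαTd/Td mice (0.0272 with centring, 0.0423 after quantile normalization), H2-DMb1 in Rα+/+ mice (-0.0084 to 0.23 with 1 mouse left out), H2-Ob for genotype after IL-4c (-0.0291 with centring), and in the difference in response H2-DMb2 (-0.44 to 0.25) and H2-Ob (-0.34 to 0.14) with 1 mouse left out. The filters change how many genes p is adjusted over and which members are tested; for the other alternatives the cause was not tested. Where a PBS mouse is left out, its group holds 1 mouse, which is assumed to vary like the other groups. No paired analysis was possible because the mouse numbers are unique. The test of the difference in response could not be run for 2 groups or by the unpaired test.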
